A study of Heterocephalus glaber with 6 samples.

Results

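The 100 loci described here stood higher in both epidermis libraries taken on day 10 after the carcinogen DMBA than in any of the other 6 libraries of a naked mole-rat skin study. They were chosen from 33281 loci by their values. Counts were scaled to the library total as CPM, the counts of a locus per 1000000 counts of its library, and 12297 loci with at least 2 CPM in both DMBA libraries were ranked. The ranking score was the lower DMBA CPM plus 0.5, divided by the highest CPM of the other 6 libraries plus 0.5, and the first 100 loci were taken. The score therefore fixes that DMBA is high, and that height is given below as a description with no test.

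RNA was sequenced from the epidermis of wild-type naked mole-rats, long-lived subterranean rodents, aged 6 to 7 months. In the DMBA group 1 dose of 100 µl DMBA at 1 mg/ml in acetone was put on the back skin and the skin was taken on day 10. In the DMBA/TPA group the same dose was followed by TPA at 0.1 mg/ml, 2 times per week, and the skin was taken on day 46. Each regimen had its own acetone-treated controls, called DMBA controls and DMBA/TPA controls here, whose harvest day the labels do not state. Each of the 4 groups held 2 libraries, with totals of 22852358 to 38124702 counts. Nothing in the labels ties the libraries to separate animals; the p-values rest on the spread between libraries alone, which may be technical. In bulk tissue, more RNA of a locus per cell and more cells that express it cannot be told apart.

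DMBA is a polycyclic aromatic hydrocarbon. In rodent skin it binds the aryl hydrocarbon receptor, is oxidised by cytochrome P450 enzymes of the CYP1 family to reactive diol epoxides and forms bulky adducts on DNA. Keratinocytes answer such damage with repair, cell-cycle arrest, death or regeneration of the epidermis. TPA, a phorbol ester, activates protein kinase C and drives repeated epidermal growth and inflammation, which is why it serves as a tumour promoter after DMBA. None of these genes could be looked up, because the loci carry only Ensembl-format IDs (beginning ENSHGLG) or IDs in the format of loci from a transcript assembly (beginning MSTRG), and no ID could be paired with a symbol. The epidermal identity of the samples could not be checked against marker genes for the same reason. The loci are therefore described by ID, level and pattern.

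A handful of the 100 loci stood far above the rest of the list. The score was at least 10 for 3 loci, from 4 to below 10 for another 3, from 2 to below 4 for 10, from 1.5 to below 2 for 30 and below 1.5 for 54, with a median of 1.48. When the same rule was turned to the other groups, no locus of the DMBA controls or the DMBA/TPA controls and 1 locus of DMBA/TPA reached a score of 4, against 6 for DMBA. The highest scores were 2.27, 3.28 and 4.84 in those 3 groups and 41.6 in DMBA. Further down the order was different. The 100th locus scored 1.3 in DMBA, 1.5 in DMBA/TPA, 1.86 in the controls of DMBA/TPA and 1.28 in those of DMBA. Scores of at least 1.5 were reached by 46 loci in DMBA, 100 in DMBA/TPA, 336 in the controls of DMBA/TPA and 21 in those of DMBA. At the 100th place the DMBA score thus lay between those of the acetone control sets, and below the score of the DMBA/TPA controls. The rule was turned to the other groups with library totals only. The TMM scaling explained further below lowers the values of the acetone libraries and raises those of the treated ones. The order of the groups may therefore depend on the scaling.

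**Figure D1:**
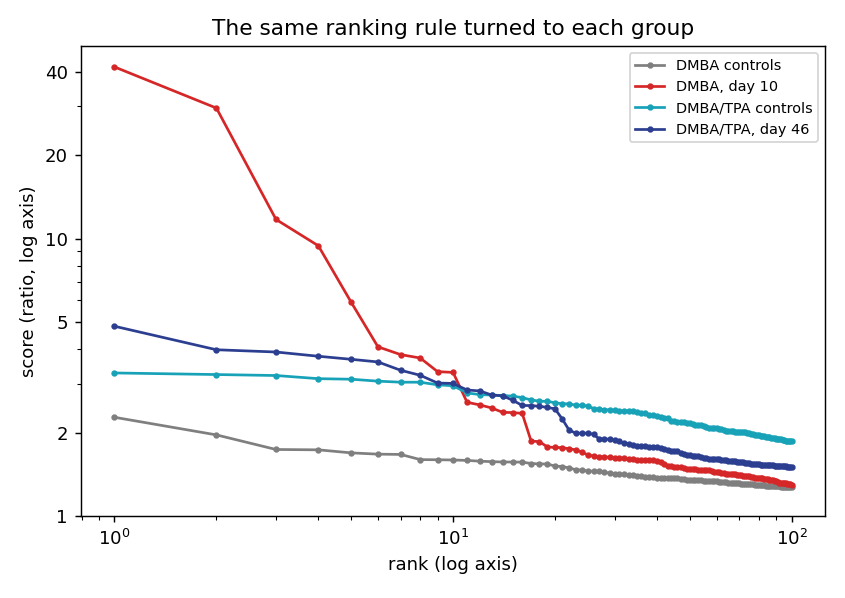
Score of the first 100 loci by rank (both axes logarithmic) when the same rule is applied to each of the 4 groups; each point is 1 locus. The DMBA curve begins at 41.6 and falls below the DMBA/TPA and DMBA/TPA control curves after about the first 10 loci, ending at 1.3.

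The locus at the top, MSTRG.67, was an abundant transcript on day 10 and a rare one everywhere else. Its values were 583 and 287 CPM in the 2 DMBA libraries. In DMBA/TPA it stood at 4.2 and 1.52 CPM, in the DMBA/TPA controls at 6.41 and 4.64 CPM, and its DMBA controls had 4.38 and 1.31 CPM. The lower DMBA library was 44.7 times the highest of the other 6, and the DMBA/TPA mean was 0.658% of the DMBA mean.

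MSTRG.86, the next in rank, had the same shape at a lower level. It stood at 249 and 137 CPM in DMBA, at 1.59 and 0.708 CPM in DMBA/TPA, at 4.15 and 0.994 CPM in the DMBA/TPA controls and at 1.44 and 1.05 CPM in the DMBA controls. All 6 libraries outside DMBA lay at or below 4.15 CPM, and the mean DMBA level was 154 times that of the DMBA controls.

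ENSHGLG00000017159 was the only one of the 12297 ranked loci with no count in any of the 6 libraries outside DMBA. It had 259 and 189 counts, or 8.61 and 5.36 CPM, in the DMBA libraries. Taking 3 counts per library as the limit that a count of 0 allows, it was at least 40.9-fold higher in the lower DMBA library than in the acetone library with the highest such limit. In MSTRG.67, MSTRG.86 and ENSHGLG00000017159 the first DMBA library was the higher one, with the second at 0.492, 0.549 and 0.623 times its level. Limits and intervals of this kind cover counting error only.

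MSTRG.8501, MSTRG.8502 and MSTRG.8503 carried consecutive ID numbers and were all among the first 10, at ranks 4, 5 and 9. MSTRG.8501 stood at 45.6 and 40.6 CPM in DMBA and at 0.997 to 3.86 CPM in the other 6 libraries. In MSTRG.8502 the values were 7.88 and 25 CPM in DMBA and at 0 to 0.919 CPM elsewhere. MSTRG.8503 stood at 61.1 and 37.5 CPM in DMBA, at 6.37 and 11 CPM in DMBA/TPA, at 1.15 and 1.16 CPM in the DMBA/TPA controls and at 6.78 and 0.946 CPM in the DMBA controls. The 3 did not keep 1 ratio between the DMBA libraries, since MSTRG.8502 was 3.18 times higher in the second library and the other 2 were higher in the first. The annotation behind the IDs was not used here, so whether they are parts of 1 gene cannot be told.

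The remaining loci of the first 10 had smaller margins. MSTRG.2456 was already present in acetone-treated skin, at 26.1 to 49 CPM in the 4 acetone libraries, and stood at 809 and 554 CPM in DMBA and 136 and 86.8 CPM in DMBA/TPA. MSTRG.13518 stood at 9.31 and 8.94 CPM in DMBA and at 0.84 to 1.97 CPM elsewhere. MSTRG.14558 stood at 5.45 and 5.76 CPM in DMBA, at 0.29 to 0.437 CPM in the acetone libraries and at 0.984 and 1.1 CPM in DMBA/TPA. These last loci agreed closely between the DMBA libraries, unlike MSTRG.2456. MSTRG.5132 stood at 6.95 and 6.78 CPM in DMBA and at 0.534 to 1.71 CPM elsewhere.

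**Figure D2:**
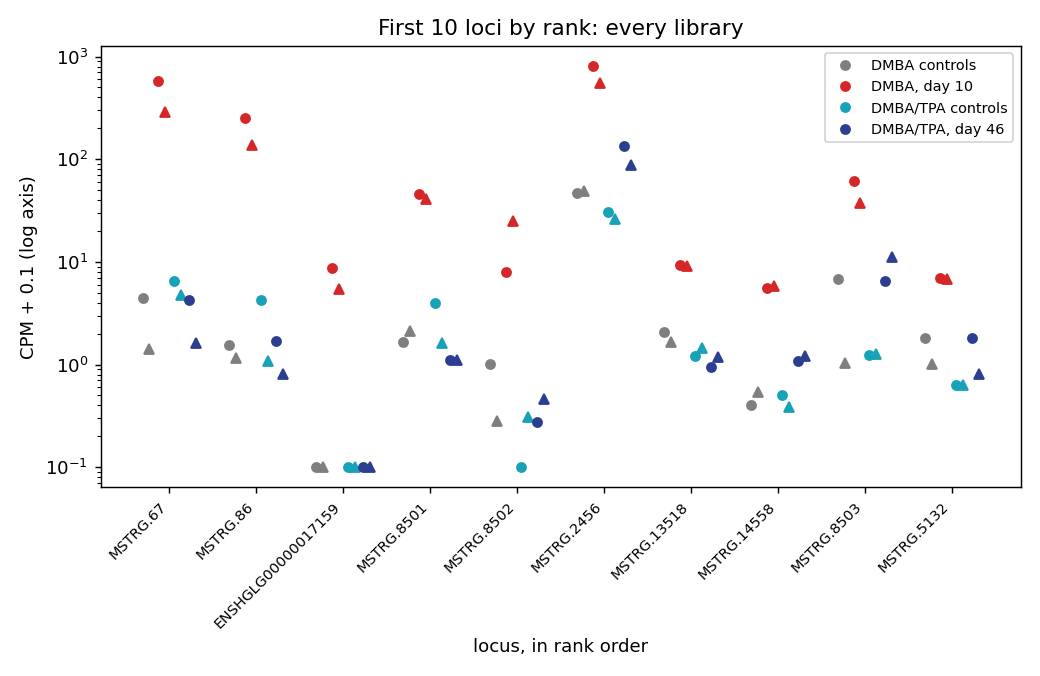
CPM plus 0.1 (logarithmic axis) of the first 10 loci in rank order in every library; circles are the first and triangles the second library of a group. For MSTRG.67 and MSTRG.86 the red DMBA points lie more than 30 times above every other point, and MSTRG.2456 is the only one of the 10 above 26 CPM in all acetone libraries.

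Many members were also detected outside DMBA. Of the 100 loci, 1 stayed below 0.5 CPM in every library outside DMBA, 37 reached 0.5 to below 5 CPM in the highest of them and 62 reached 5 CPM or more in at least 1. Over all ranked loci the shares were 0.00813%, 5.44% and 94.6%. The score, which divides by the highest other library, favours members that are low there. In all 6 of those libraries 43 members had at least 5 CPM. Compared with the mean of their own controls, 67 of the 97 members with counts in those controls were more than 2-fold higher in DMBA, 24 more than 4-fold and 9 more than 10-fold. The median fold was 2.32 and the range 1.42 to 154.

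The most abundant member was MSTRG.15887, at 977 and 1126 CPM in DMBA. It was also high elsewhere, at 273 and 552 CPM in DMBA/TPA, 375 and 530 CPM in the DMBA controls and 249 and 360 CPM in the controls of DMBA/TPA. MSTRG.15888, which carries the next ID number, stood at 147 and 126 CPM in DMBA and at 36.2 to 67.6 CPM elsewhere. MSTRG.12027 and MSTRG.8026 were the other abundant members, at 230 and 252 CPM and at 168 and 153 CPM in DMBA. Their highest values outside DMBA were 154 and 110 CPM, both in the second DMBA control library. Together the 100 loci held 0.573% and 0.51% of all counts in the DMBA libraries and 0.155% to 0.206% in the other 6.

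The DMBA libraries lay close to each other for most members, although over all loci they were the least alike pair of the 4 groups, with a chi-square statistic of 137 per degree of freedom against 26.2 to 41.2. The higher of the 2 was a median of 1.14 times the lower, against 1.25 over all ranked loci, a ratio that the use of the lower library in the score favours. It was more than 2 times the lower for 5 members and at most 5.09 times, in MSTRG.15893 with 12.3 and 2.41 CPM. The second library was the higher in 50 of the 100. Among the first 10 the ratio had a median of 1.53, and the first library was the higher in 8.

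**Figure D3:**
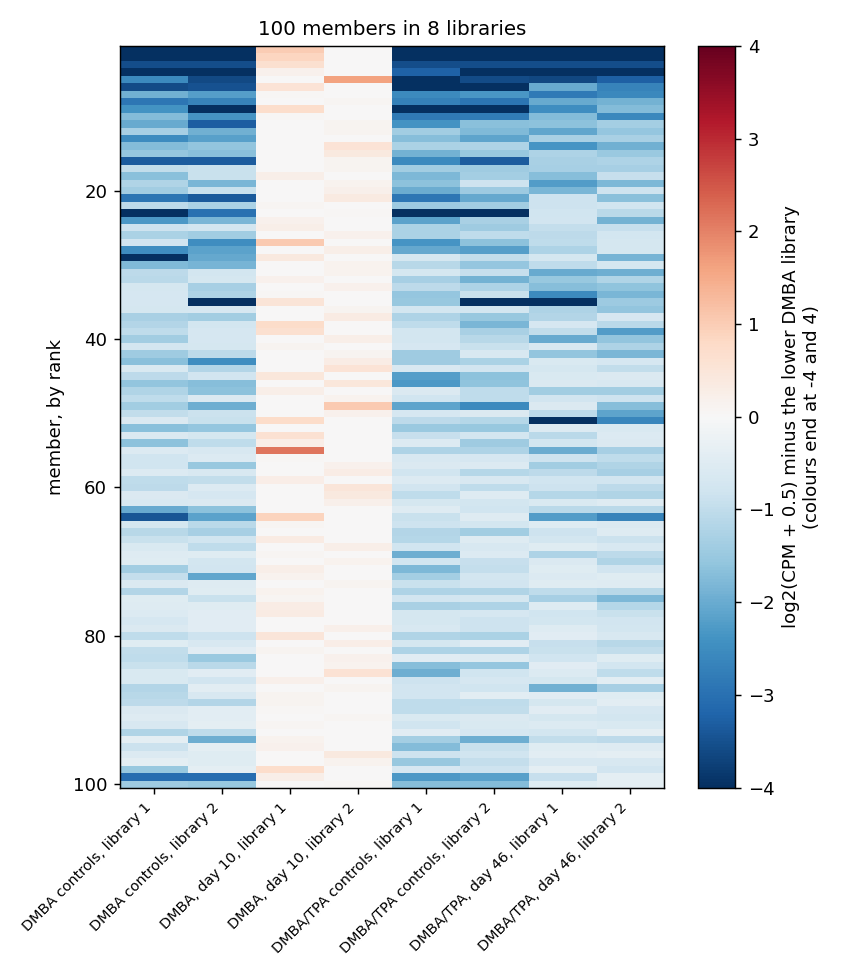
Each row is 1 of the 100 loci by rank and each column 1 library; colour gives log2(CPM + 0.5) minus that of the lower DMBA library, with colours ending at -4 and 4. Every cell outside the 2 DMBA columns is below 0, as the rule requires, with dark cells in the first 10 rows and pale ones in most rows further down.

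The list was also made with 1 DMBA library choosing and the other read. The reading is not independent of the choice, since both use the same 6 other libraries and the choice favours loci that are low in them. The share among the remaining loci is given as a description, as these were not chosen for low values. Part of the gap between the shares is therefore fixed by the choice, and it is not read as a replication. With the first library alone choosing 100 loci, the second lay above all 6 other libraries in 64 of them, against 10.8% of the remaining 12572 loci with at least 2 CPM in the choosing library. The median score of these loci was 1.94 in the choosing library and 1.34 in the other. With the second library choosing, the first lay above all 6 in 85 of 100, against 10.6% of 12814, and the medians were 1.85 and 1.47. The lists chosen by 1 library shared 50 and 57 loci with the 100. Of the first 10 loci by rank, 7 and 8 were again among the first 10.

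ID class and ID number were not part of the rule. Of the 100 members 28 had Ensembl-format IDs, against 17.2% of the ranked loci. Their lower DMBA value had a median of 6.56 CPM, against 21.4 CPM for the 72 assembled members. The first 10 loci held 1 of them. ENSHGLG00000010388 stood at 25.4 and 27.5 CPM in DMBA and at 2.11 to 9.55 CPM elsewhere. ENSHGLG00000016409 stood at 16.9 and 18.2 CPM in DMBA and at 3.62 to 6.43 CPM elsewhere, and ENSHGLG00000013747 at 3.82 and 5.79 CPM against 0.347 to 1.32 CPM. In each of the 3, every other library lay below 0.5 times the lower DMBA value. ENSHGLG00000006491 had a narrower gap, at 36.2 and 38.9 CPM in DMBA and 11.8 to 22.5 CPM elsewhere. In ENSHGLG00000007470 the DMBA libraries themselves differed, at 13.5 and 6.33 CPM against 0.728 to 3.67 CPM elsewhere, and ENSHGLG00000006369 stood at 11 and 12.6 CPM against 3.01 to 6.65 CPM.

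Members lay next to each other in ID number more often than ranked loci in general. Of 96 ranked assembled loci whose number directly follows or precedes that of a member, 11 were themselves members, which is 11.5%, while members made up 0.707% of the 10184 ranked assembled loci. Besides MSTRG.8501 to MSTRG.8503 these were the pairs MSTRG.95 and MSTRG.96, MSTRG.3787 and MSTRG.3788, MSTRG.13518 and MSTRG.13519, and MSTRG.15887 and MSTRG.15888. Of the 85 ranked neighbours that were not members 3.53% had a score above 1, close to the 2.87% of all such assembled loci that were not members. The files do not say what consecutive numbers mean on the genome.

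The comparison of DMBA/TPA with its own controls asked what these loci did on day 46, after repeated TPA. This contrast did not choose the members, although the rule caps their level in both of its groups. With TMM scaling, which corrects library totals for loci that take a large share of the reads, 35 of the 100 members rose and 1 fell (edgeR's quasi-likelihood test, adjusted p below 0.05), where 14.5% of the 18422 tested loci were called higher and 12% lower. The median log2 fold change was 0.65 over the members and -0.04 over all tested loci, and it was positive for 79 members. The CPM of the groups, scaled to library totals, did not overlap in 41 members that were higher and 26 that were lower on day 46, against 17% and 56.4% of all tested loci. All 100 passed the low-count filter, and 98 would have done so on the 6 libraries outside DMBA. The scaling matters for the direction: with library totals alone the median of all loci moved to -0.52 and that of the members to 0.16, with 17 members called higher and 10 lower, against 5.62% and 28% of all tested loci. Under TMM, upper-quartile and total scaling and DESeq2 alike, 17 members were called higher and 0 lower, against 5.62% and 11.7% of all tested loci, with 10 called lower in at least 1 of these 4. The count of 35 was 14 when the first DMBA/TPA control library was left out and 18 without the second, 22 and 16 when the first or second DMBA/TPA library was left out, and 10 when the 2 libraries of each control sample were summed into 1. The shares of all tested loci called higher in these fits were 4.37%, 6.16%, 6.47%, 5.25% and 2.38% in that order.

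**Figure D4:**
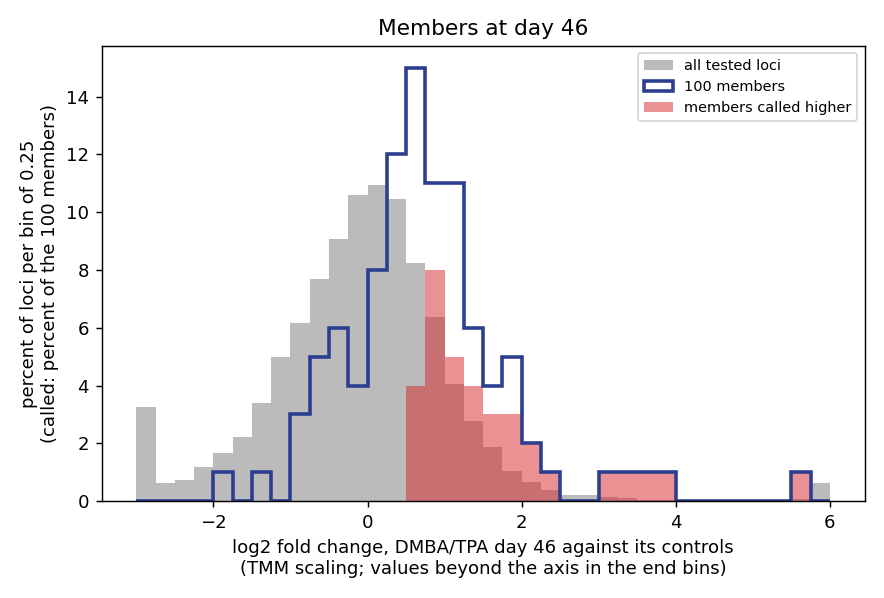
Distribution of log2 fold changes in DMBA/TPA on day 46 against its controls (TMM scaling) for all 18422 tested loci (grey, percent of loci), the 100 members (blue outline) and the members called higher (red). The members lie to the right of the grey distribution, with medians of 0.65 and -0.04, and 35 are called higher.

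The 5 members of smallest p among those that rose on day 46 stood at 16.3% to 73.5% of their DMBA mean. Throughout, CPM are scaled to library totals, whereas the log2 fold changes use TMM scaling. The TMM factors were 0.8599 and 0.786 in DMBA/TPA and 1.108 and 1.189 in the DMBA/TPA controls. The stated rises are therefore larger, and the falls smaller, than the printed CPM give. For MSTRG.2456 the log2 fold change was 1.98 with library totals alone. MSTRG.7544, the last locus of the list, stood at 51.9 and 55.4 CPM in DMBA/TPA and at 21.9 and 21.4 CPM in its controls, a log2 fold change of 1.79 (standard error, SE, 0.16; edgeR adjusted p = 0.000749). Its DMBA level was 72.2 and 73.8 CPM, and each of the 4 treated libraries exceeded every acetone library. MSTRG.2456 rose by 2.44 on the log2 scale (SE 0.269, edgeR adjusted p = 0.000889), to 16.3% of its DMBA mean.

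MSTRG.5781 stood at 12.1 and 9.86 CPM in DMBA/TPA against 4.72 and 5.34 CPM in its controls, and rose by 1.6 on the log2 scale (SE 0.201, edgeR adjusted p = 0.00127). MSTRG.1726 stood at 28.6 and 27.6 CPM against 8.34 and 13.8 CPM, a log2 fold change of 1.83 (SE 0.234, edgeR adjusted p = 0.00131). ENSHGLG00000019086 stood at 51.5 and 52.5 CPM against 33.6 and 34.5 CPM. Its log2 fold change with TMM scaling was 1.09 (SE 0.153, edgeR adjusted p = 0.0018). The groups did not overlap in any of these, and their DMBA values were 16.6 and 18.4, 43.3 and 59.7, and 97.1 and 92.3 CPM. The last call was lost when control libraries were summed (edgeR adjusted p = 0.0532).

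Among the first 10 loci by rank, 4 rose in DMBA/TPA and 6 were not called. MSTRG.14558 rose by 2.04 (SE 0.449, edgeR adjusted p = 0.0108), MSTRG.8503 by 3.4 (SE 0.767, edgeR adjusted p = 0.0141) and MSTRG.5132 by 1.62 (SE 0.491, edgeR adjusted p = 0.0374), all on the log2 scale. These 3 calls were kept in 14, 11 and 9 of 18 alternatives, in that order, and each was lost on leaving out either DMBA/TPA control library. The calls of MSTRG.8503 and MSTRG.5132 were also lost with pooled controls and with the DMBA controls in place of their own. The log2 fold changes of MSTRG.67, MSTRG.86 and MSTRG.8501 were -0.51, -0.72 and -0.96, with standard errors of 0.594, 0.655 and 0.418 (edgeR adjusted p = 0.57, 0.451 and 0.118). Neither MSTRG.8502, at 1.86 (SE 1.26, edgeR adjusted p = 0.304), nor MSTRG.13518, at 0.12 (SE 0.335, edgeR adjusted p = 0.818), was called. ENSHGLG00000017159 had no count in either group. Among consecutive IDs, MSTRG.8503 was therefore called on day 46 while MSTRG.8501 and MSTRG.8502 were not, a difference between loci that was not itself tested.

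Besides ENSHGLG00000017159, a pair of Ensembl-format members had no count in either DMBA control library. ENSHGLG00000015198 had 130 and 127 counts in DMBA, or 4.32 and 3.6 CPM, at least 27.4-fold above the limit of 3 counts in those controls. It stood at 0.329 and 0.414 CPM in the DMBA/TPA controls and 1.65 and 2.65 CPM in DMBA/TPA, a log2 fold change of 3.02 (SE 0.505, edgeR adjusted p = 0.00446). ENSHGLG00000008076 had 137 and 173 counts in DMBA, at least 34.7-fold above that limit. It stood at 0.37 and 0 CPM in the DMBA/TPA controls and at 1.56 and 1.65 CPM in DMBA/TPA. Its call on day 46 (log2 fold change 3.55, SE 0.873, edgeR adjusted p = 0.0195) was lost without either DMBA/TPA library.

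MSTRG.3169 was the member that fell on day 46 with TMM scaling. It stood at 6.45 and 7.18 CPM in DMBA, 3.78 and 3.15 CPM in the DMBA/TPA controls and 1.22 and 1.28 CPM in DMBA/TPA, a log2 fold change of -0.99 (SE 0.318, edgeR adjusted p = 0.0457). The groups did not overlap, but the call was lost in 12 of 18 alternatives, DESeq2 among them. ENSHGLG00000004843 rose by 1 on the log2 scale with TMM scaling (SE 0.278, edgeR adjusted p = 0.0272). It stood at 5.71 and 4.68 CPM in the DMBA/TPA controls and at 6.02 and 8.76 CPM in DMBA/TPA. That call was lost with library totals alone, with control libraries summed and with the DMBA controls in place of its own. It was also lost without either DMBA/TPA control library and without the second DMBA/TPA library.

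Which of the 6 other libraries was the highest was not fixed by the rule. For 41 members the highest of the 6 other libraries was a DMBA/TPA library, for 39 a DMBA control and for 20 a DMBA/TPA control. Over all ranked loci the shares were 19.4%, 40.1% and 40.5%. In the members the highest other library is also the one closest to the DMBA level. Among all ranked loci this need not hold, as DMBA exceeded the other 6 libraries in only 3.98% of them. With TMM scaling a DMBA/TPA library was the highest of the 6 for 65 members, against 42.3% of all ranked loci. Of the 41 members whose highest other library was DMBA/TPA 29 were called higher on day 46, against 6 of 39 and 0 of 20 in the other classes. This split is largely built in, since the classes and the call use the same DMBA/TPA and control libraries. The shares of all ranked loci called in each class were not counted, so nothing is read from it. Scaled to library totals, the DMBA/TPA mean was a median of 40.4% of the DMBA mean and ranged from 0% to 73.5%. It was under 10% for 7 members. The TMM factors were 0.8599 and 0.786 in DMBA/TPA and 0.9391 and 0.9945 in DMBA, so these percentages are lower than TMM scaling gives. With TMM scaling the median log2 difference between DMBA/TPA and DMBA was -1.07, a description of values that the rule used.

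The control sets were compared with each other as a background. No member was called between the DMBA/TPA controls and the DMBA controls in edgeR's test, where 0.711% of all tested loci were called. At an unadjusted p below 0.05 there were 20 members, against 16.3% of all tested loci. DESeq2 called 5, against 4.48% of the loci it gave an adjusted p, of which 3 were higher and 2 lower in the DMBA/TPA controls. The median log2 difference was -0.18 over the members and -0.02 over all tested loci. The CPM of the control sets did not overlap in 53 members, with 34 lower and 19 higher in the DMBA/TPA controls, against 21.7% and 27.4% of all tested loci. ENSHGLG00000015198 came closest to the threshold (edgeR adjusted p = 0.0588).

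The border of the list was not a gap. The last 3 members, MSTRG.3437, ENSHGLG00000015198 and MSTRG.7544, scored 1.31, 1.3 and 1.3, and the first 3 loci outside, MSTRG.90, ENSHGLG00000017641 and MSTRG.16273, scored 1.3, 1.3 and 1.29. MSTRG.3437 stood at 3.82 and 2.16 CPM in DMBA and up to 1.53 CPM elsewhere. MSTRG.90 stood at 21.4 and 9.73 CPM in DMBA and up to 7.39 CPM elsewhere. ENSHGLG00000017641 stood at 13.7 and 15.2 CPM in DMBA and up to 10.5 CPM elsewhere, in a DMBA/TPA library, and MSTRG.16273 at 6.02 and 6.84 CPM and up to 4.55 CPM.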

How the data were processed

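The deposited files hold unnormalized counts for each gene ID, described as raw per the labels; the submitters' processing notes list cutadapt, FastQC, Bowtie2 and TopHat2 with no role. Libraries were depleted of ribosomal RNA and strand-directional, per the labels' protocols. Neither the build and annotation nor the counting tool and its strand setting is given in the sources used here, so reads of overlapping, antisense or near-identical loci may be split or shared. The 2 control samples each hold 2 count columns, taken as separate libraries. The second DMBA/TPA column, headed by a number alone, was assigned through its file. The chi-square statistic per degree of freedom was 137 in DMBA and 26.2 to 41.2 in the other groups, so no pair agreed within sampling noise. None of the 33281 IDs matched the RefSeq gene table of 42221 rows, so the planned gene lists and markers could not be used.

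Loci passing filterByExpr (minimum count 10, total 15) were fitted over all 4 groups in R 4.3.3 with edgeR 4.0.16 (TMM, robust quasi-likelihood, 4 residual degrees of freedom, Benjamini-Hochberg over 18422 loci). The code was also run on simulated counts drawn with the spread of the fit itself. That run cannot speak to the choice of scaling or to the calls made here. Standard errors were derived from the F statistic of each log2 fold change. DESeq2 1.42.0 and the other alternatives are in the closing section. Members and lists were chosen with earlier results of these data known. Named loci are the first 10 by rank, the 5 of highest DMBA level, the first 10 with Ensembl-format IDs, up to 5 called per direction and comparison, and 3 on each side of the border; a few others, chosen after their values were seen, are MSTRG.15888, MSTRG.15893 and the consecutive IDs.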

Additional observations from a re-analysis of the deposited data

How the results depend on the processing

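The list depended most on the DMBA libraries. It shared 97 and 92 loci with lists made with a pseudocount of 0.1 or 2, 86 and 80 with a minimum of 1 or 5 CPM, 83 with control libraries summed and 72 with TMM scaling. With 1 library left out it shared 50 to 90, and the lowest, 50 and 57, came from leaving out the second or the first DMBA library. The 35 members called higher in DMBA/TPA became 17 with library totals alone and 10 with control libraries summed, and 14 to 40 with 1 library left out. The 1 member called lower became 2 with DESeq2 and with pooled controls, 3 with upper-quartile scaling, 10 with library totals, 0 with no low-count filter and with control libraries summed, and 0 to 2 with 1 library left out. Between the control sets, no member was called higher in edgeR, but 3 were with DESeq2, 2 each with upper-quartile scaling, library totals or no low-count filter, 1 with a filter of 1 CPM, and 0 to 2 with 1 library left out. Members called lower there were 2 with DESeq2, 1 with no low-count filter and 0 to 3 with 1 library left out. With library totals 5.62% of all tested loci were called higher and 28% lower on day 46. With control libraries summed 2.38% were called higher. Between the control sets DESeq2 called 4.48% of its loci in either direction. Shares that are not given here or above were not counted, and nothing is read about the members from those counts. The cause of these shifts was not tested.

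Of the 36 members called on day 46, 7 kept the call in all 18 alternatives, and all 36 kept their direction. Over the 31 named loci 484 alternative values stayed on their side of the threshold, 41 lost a call and 31 gained one. The sample numbers of the treated libraries gave no sign of pairing. Same-numbered libraries had a correlation of deviations of -0.000106 across 18422 loci, and the replicate block gave 31 members higher and 1 lower. With 2 libraries per group this cannot show that the samples were unpaired. Leaving out a library leaves 1 in its group, which is then assumed to vary like the others. Some members rest on few counts outside DMBA, such as 3 counts of ENSHGLG00000005239 in the second DMBA control library. That locus also had the lowest lower DMBA value, 2.07 CPM or 73 counts, just above the minimum of 2 CPM. The median of the lower DMBA value was 16.8 CPM both in the members and over all ranked loci.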

Other observations

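Some members varied more within groups than the list's median. MSTRG.2702 stood at 99.1 and 69.3 CPM in DMBA, but at 2.23 and 24.9 CPM in DMBA/TPA, 23.8 and 0.58 CPM in the DMBA/TPA controls and 43.1 and 1.67 CPM in the DMBA controls, so each of the other groups held 1 high and 1 low library. MSTRG.4326 stood at 155 and 82.7 CPM in DMBA. Its DMBA/TPA controls, at 44.5 and 57.9 CPM, lay above both its DMBA controls, at 7.31 and 18.4 CPM, and its DMBA/TPA libraries, at 17 and 12.5 CPM. Neither difference passed the threshold (edgeR adjusted p = 0.101 between the control sets and 0.058 for DMBA/TPA). MSTRG.96 stood at 29.2 and 17.3 CPM in DMBA and at 0.376 and 2.44 CPM in DMBA/TPA, below its controls at 8.14 and 7.58 CPM (edgeR adjusted p = 0.0525), while its neighbour in number, MSTRG.95, stood at 1.01 and 1.36 CPM in DMBA/TPA, above its controls at 0.904 and 0.538 CPM (edgeR adjusted p = 0.109). MSTRG.4441 was near 0 in the DMBA/TPA controls, at 0 and 0.497 CPM, and stood at 9.73 and 7.95 CPM in DMBA/TPA, a rise of 5.62 on the log2 scale (SE 0.969, edgeR adjusted p = 0.00477), against 17.2 and 17.7 CPM in DMBA. These 5 loci were chosen after their values were seen.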
